A study of Homo sapiens with 4 samples.

Results

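The accessible regions at 10 genes of the plasma cell programme were described: IRF4, PRDM1, XBP1, POU2AF1, POU2F1, MEF2C, KLF2, JCHAIN, MZB1 and MYC. A peak was assigned to the protein-coding gene whose body lay nearest to the peak summit, within 100 kb, and 370 of 307634 peaks in 4 lists had a member as that gene. The assay was ATAC-seq, which tags accessible chromatin with Tn5 transposase. All libraries came from 1 established line of human multiple myeloma, OPM-2, which was exposed for 72 h to 1 µM all-trans retinoic acid with 1 µM pomalidomide (ATRA+POM), to 1 µM pomalidomide alone (POM), to 1 µM all-trans retinoic acid alone (ATRA), or to the vehicle DMSO. With 1 library in each group, replicate error could not be measured, so differences are given without p-values. The series title names RARβ, a retinoic acid receptor, and resistance to immunomodulatory drugs, the class to which pomalidomide belongs.

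IRF4, PRDM1 (BLIMP1) and XBP1 are transcription factors that establish and maintain the antibody-secreting state, and myeloma cells depend on IRF4, which acts together with MYC. POU2AF1 (OCA-B) is the coactivator of the octamer-binding factors, of which POU2F1 (OCT1) is the widely expressed one. MEF2C and KLF2 are transcription factors of the B cell lineage, and JCHAIN and MZB1 encode proteins of immunoglobulin assembly. ATRA is a ligand of the retinoic acid receptors. Pomalidomide binds cereblon, the substrate receptor of a ubiquitin ligase, which then marks the Ikaros family proteins IKZF1 and IKZF3 for degradation; in myeloma, lower IRF4 and MYC expression is the known sequel.

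Promoter windows of 5 members are given because the regions at these starts carry the comparisons that follow: IRF4, XBP1, KLF2 and MZB1 had lower summit pileups in the libraries with pomalidomide, and the MEF2C window holds a weak summit whose scaled pileup was higher there. Each is a RefSeq window of 300 bases on GRCh38.p14, ending 50 bases after the first base of a transcript, written along the gene's strand. Capitals mark every match to a searched motif. The motifs, on both strands, were CACGTG (E-box of MYC), ATGCAAAT (octamer), GGAA and GAAA separated by 2 bases (ETS-IRF composite), GAAA repeated after 2 bases (ISRE core), TGACGTGG (the XBP1 element UPRE), AGGTCA repeated after 5 or 2 bases (retinoic acid response elements), TGGGAA (Ikaros core) and CACCC (KLF core).
IRF4, plus strand, chr6:391502-391801: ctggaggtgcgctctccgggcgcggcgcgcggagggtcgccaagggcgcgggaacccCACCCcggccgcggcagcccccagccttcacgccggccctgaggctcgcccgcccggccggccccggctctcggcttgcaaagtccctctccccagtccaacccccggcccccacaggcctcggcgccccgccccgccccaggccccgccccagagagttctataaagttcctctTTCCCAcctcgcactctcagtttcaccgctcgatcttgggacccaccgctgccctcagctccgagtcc
XBP1, minus strand, chr22:28800520-28800819: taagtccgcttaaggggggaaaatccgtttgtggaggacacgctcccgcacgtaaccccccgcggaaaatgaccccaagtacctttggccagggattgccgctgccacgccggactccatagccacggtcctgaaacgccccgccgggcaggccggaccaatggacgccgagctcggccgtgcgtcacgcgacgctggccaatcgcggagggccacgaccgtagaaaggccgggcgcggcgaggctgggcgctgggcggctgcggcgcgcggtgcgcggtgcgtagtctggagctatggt
KLF2, plus strand, chr19:16324576-16324875: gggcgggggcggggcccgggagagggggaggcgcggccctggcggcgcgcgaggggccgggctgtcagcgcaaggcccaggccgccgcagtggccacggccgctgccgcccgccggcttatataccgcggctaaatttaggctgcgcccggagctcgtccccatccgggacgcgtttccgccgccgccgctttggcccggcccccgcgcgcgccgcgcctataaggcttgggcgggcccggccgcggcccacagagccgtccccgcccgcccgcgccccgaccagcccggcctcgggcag
MZB1, minus strand, chr5:139389864-139390163: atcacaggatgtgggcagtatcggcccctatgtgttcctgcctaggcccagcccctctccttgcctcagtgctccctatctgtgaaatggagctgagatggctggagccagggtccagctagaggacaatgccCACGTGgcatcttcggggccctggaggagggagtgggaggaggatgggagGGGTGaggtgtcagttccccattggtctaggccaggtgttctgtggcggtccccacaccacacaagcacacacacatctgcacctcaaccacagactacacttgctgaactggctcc
MEF2C, minus strand, chr5:88827143-88827442: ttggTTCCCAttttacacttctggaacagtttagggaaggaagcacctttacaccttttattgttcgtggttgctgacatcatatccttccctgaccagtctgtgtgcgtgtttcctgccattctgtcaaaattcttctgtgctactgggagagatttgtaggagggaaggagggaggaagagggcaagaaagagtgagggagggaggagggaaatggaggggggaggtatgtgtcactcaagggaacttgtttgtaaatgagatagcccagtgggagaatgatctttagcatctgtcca

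A peak summit lay in the IRF4 window in DMSO only, and in the KLF2 window in all lists but ATRA. The other windows shown held a summit in every list. The IRF4 window held an Ikaros core 18 bases before the start and a KLF core 193 bases before it. The MZB1 window held an E-box 117 bases before the start and a KLF core 67 bases before it, and the MEF2C window an Ikaros core 246 bases before the start. No searched motif was in the XBP1 and KLF2 windows shown. Of 34796 RefSeq windows of this length, 24.0% held the Ikaros core, 59.8% the KLF core and 7.20% the E-box. Matches to the Ikaros and KLF cores are thus common, and those to the E-box less so. The octamer was found in 1.76% of all windows and, among the windows of the 8 members that have one, in one of POU2F1 and one of MEF2C, neither shown. The ETS-IRF composite (2.83%), the ISRE core (3.57%), UPRE (0.733%) and the repeats with 5 bases (0.00575%) and 2 bases (0.00287%) between were in no member window. G and C made up 80.7% of the KLF2 window, 74.0% of the IRF4, 68.7% of the XBP1, 59.7% of the MZB1 and 47.3% of the MEF2C window.

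The lists held 85434 peaks in ATRA+POM, 69162 in POM, 76636 in ATRA and 76402 in DMSO. The pileup, the number of reads over a peak summit, was recovered from the deposited values and had a median of 22, 15, 27 and 30 reads in the same order. The POM library was the shallowest, with a most frequent rounded background of 0.55 reads at its peaks, against 1.51 in ATRA+POM, 2.36 in ATRA and 2.36 in DMSO. Pileups were put on the DMSO scale by dividing by 0.707 in ATRA+POM, 0.396 in POM and 0.873 in ATRA, each the median pileup ratio to DMSO. That median ran over 42930 regions present in every list, termed shared regions. Of 10 plasma cell marker genes, 9, 9, 8 and 8 had a summit within 1 kb of a gene boundary in ATRA+POM, POM, ATRA and DMSO; JCHAIN had none in any list, and the summed pileups on the DMSO scale were 1263, 1263, 1995 and 1926. SLAMF7 entered the plasma cell sums in ATRA+POM and POM only. Markers of T cells had a summit there at 3 of 5 genes in each list, with summed pileups on the DMSO scale of 209, 374, 277 and 250 in that order. The 3 genes were CD3E, CD8A and CD2 in ATRA+POM and POM, and CD3D, CD3E and CD8A in ATRA and DMSO. These sums thus cover different genes. Monocyte markers had one at 1 of 5 genes (CD68) and epithelial markers at 1 of 4 (KRT18) in each list, and erythroid markers at 1 of 5 (ALAS2) in ATRA+POM and at 0 in the other lists. Their part in the results was not tested. Of the plasma cell markers, IRF4, PRDM1, XBP1, POU2AF1, MZB1 and JCHAIN are members, so that sum is not separate from the values below. All shared regions within 1 kb of a gene boundary had a median log2 ratio of -0.48 for POM against DMSO.

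Members had 100 peaks in ATRA+POM, 81 in POM, 91 in ATRA and 98 in DMSO. MEF2C had most, with 30, 24, 22 and 27 peaks in that order, and MZB1 had 1 in each list. PRDM1 had 19 peaks in ATRA+POM, 12 in POM, 14 in ATRA and 14 in DMSO, and POU2F1 had 16, 12, 14 and 18. IRF4 had 8 peaks in ATRA+POM, 8 in POM, 11 in ATRA and 10 in DMSO, and MYC had 9, 6, 8 and 6. The counts of XBP1 (6, 7, 7 and 7), KLF2 (4, 5, 4 and 5), POU2AF1 (4, 3, 5 and 5) and JCHAIN (3, 3, 5 and 5) differed by at most 2 between lists.

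**Figure D1:**
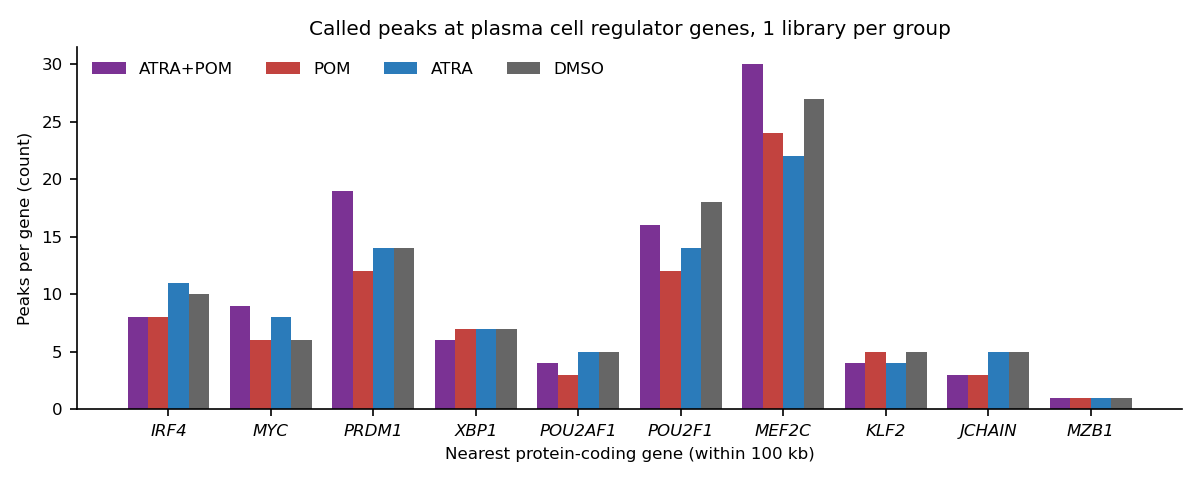
Number of called peaks (vertical axis) assigned to each of the 10 genes (horizontal axis), with 1 bar for each library, ATRA+POM, POM, ATRA and DMSO from left to right. MEF2C has 22 to 30 peaks in every list and MZB1 has 1, and the POM list has the fewest PRDM1 and POU2F1 peaks (12 each).

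Overlapping peaks of all lists were merged into 131 member regions out of 122632 in all. Of these, 51 were shared, which is 38.9% of member regions against 35.0% of all regions, and 36 were called in 1 list only. A gained peak has not even 1 bp in common with the list it is set against, and a lost peak is one of that other list without such a partner. After POM, 14 of 81 member peaks were gained relative to DMSO, against 27.2% of all POM peaks, and 38 of 98 DMSO peaks were lost, against 36.6% of all DMSO peaks. The lost ones were mostly at POU2F1 (10), MEF2C (9) and IRF4 (5). The share lost, 38.8%, was near the background, and the share gained, 17.3%, was below it. Of the 14 gained peaks, 11 were narrower than 300 bp. Had scaled pileup and background stayed the same, all 14 would have reached the smallest −log10 p-value called in DMSO. Of the 38 lost, 18 would likewise have reached the smallest one called in POM. With all lists cut to equal length, 24 were lost.

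After ATRA+POM, 19 of 100 member peaks were gained relative to DMSO, against 32.7% of all, and 21 of 98 were lost, against 25.8%. After ATRA, 12 of 91 were gained relative to DMSO and 20 of 98 lost, against 19.5% and 19.5% of all peaks. Set against ATRA, ATRA+POM gained 26 of 100 and lost 20 of 91, against 33.3% and 26.5%. Set against POM, ATRA+POM gained 39 of 100 and lost 15 of 81, against 35.0% and 17.7%. These comparisons share libraries, so their counts are not independent of each other. Among all gained and lost member peaks, 1 was in the strongest 20000 of its list: a POU2F1 peak inside the gene (chr1:167342850-167343286) with a pileup of 66 in DMSO and no overlapping peak in POM. The merged region there had pileups of 47 in ATRA+POM and 54 in ATRA.

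Shared regions were compared by scaled pileup and called at 2-fold. After POM, 4 of 51 member regions were higher and 9 lower than in DMSO, against 11.5% and 9.52% of all shared regions. After ATRA+POM, 4 were higher and 5 lower than in DMSO, against 13.2% and 9.75%. Set against ATRA, ATRA+POM had 4 higher and 3 lower, against 12.8% and 8.63%. The 9 regions lower after POM lay at XBP1 (4), IRF4 (2), MEF2C (2) and KLF2 (1). These calls rest on the measure: with the deposited fold over local background in place of the pileup, 0 member regions were lower and 1 was higher after POM. That fold adds 1 read to both pileup and background, which lowers it most at the low backgrounds of the POM library. With the scale taken from shared regions within 1 kb of a gene boundary, a choice made after seeing the data, 1 was lower and 6 were higher.

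Pomalidomide was compared without ATRA (POM against DMSO) and with it (ATRA+POM against ATRA), and these pairs share no library. In both pairs 2 member regions were higher 2-fold and 3 lower, against 6.90% and 4.58% of all shared regions. The higher ones were a POU2F1 and a MEF2C region, and the lower ones were at the starts of XBP1 and KLF2 and inside MEF2C. The log2 ratios of the 2 pairs correlated over the 51 member regions with r = 0.797 and had the same sign in 38, against r = 0.771 and 78.4% same sign over the 42930 shared regions; regions are not replicates and share depth and scale within a library. The median log2 ratio of member regions was -0.30 for POM against DMSO and -0.32 for ATRA+POM against ATRA, where all shared regions are centred on 0.

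Ratios differed with position. All 9531 shared regions within 1 kb of a gene boundary had a median log2 ratio of -0.48 for POM against DMSO and -0.46 for ATRA+POM against ATRA, and the 8 member regions there had -0.69 and -0.63. All 8 were below 0 in both pairs, and they lay at IRF4, MYC, PRDM1, XBP1, POU2AF1, POU2F1, KLF2 and MZB1. Most boundary regions were below 0 too, 7382 of the 9531 for POM against DMSO and 7488 for ATRA+POM against ATRA. Farther than 1 kb from a boundary, the median was 0.15 over all shared regions and -0.28 over the 43 member regions for POM against DMSO. The values at member starts below are therefore read beside the boundary median.

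**Figure D2:**
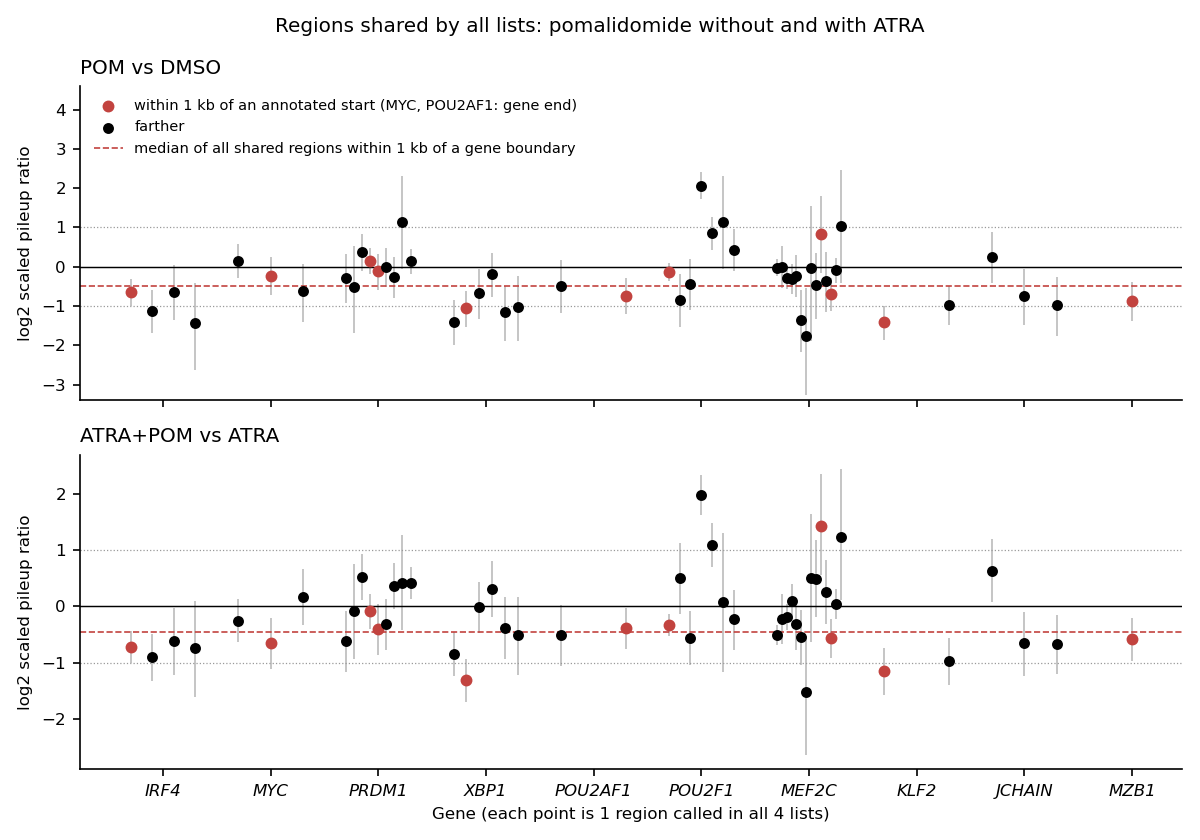
Log2 ratio of scaled summit pileups (vertical axis) for POM against DMSO (top) and ATRA+POM against ATRA (bottom). Each point is 1 shared region, grouped by gene and ordered by position. Lines are 95% counting intervals and dotted lines mark 2-fold. Red points lie within 1 kb of an annotated start (MYC and POU2AF1: of either boundary of the gene body). The dashed line is the median of all shared regions within 1 kb of a gene boundary. The IRF4 and KLF2 points lie below 0 in both panels, and 1 POU2F1 region stands at 2.06 and 1.97.

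At IRF4, all 4 shared regions had lower pileups in both libraries with pomalidomide. The region at the start (chr6:390977-392967) had 149 reads in ATRA+POM, 94 in POM, 303 in ATRA and 371 in DMSO, which is 211, 237, 347 and 371 on the DMSO scale. Both pomalidomide libraries lie under both others. The scaled ratio was 0.640 for POM against DMSO (95% counting interval 0.505 to 0.804) and 0.607 for ATRA+POM against ATRA (0.496 to 0.741). In log2 these are -0.64 and -0.72, beside the boundary medians of -0.48 and -0.46. Such intervals cover counting error only, since PCR copies are not independent molecules and no replicate was sequenced.

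Inside the IRF4 gene, the region at chr6:398557-400341 had 70 reads in ATRA+POM, 34 in POM, 162 in ATRA and 186 in DMSO, with a log2 ratio of -1.12 for POM against DMSO and -0.91 for ATRA+POM against ATRA. A region beyond the end of the gene (chr6:434424-435221) had 19, 9, 39 and 61 reads in the same order, the lowest ratio of the locus after POM (log2 -1.42). The local background recovered for the 4 regions had a median log2 ratio of -0.79 for POM against DMSO and -0.72 for ATRA+POM against ATRA, each centred on its median over all shared regions. The recovered background was thus lower along with the summits, though it can include reads of the peaks themselves, since the caller's windows were not given. With the deposited fold the start region turned sign, with log2 ratios of 0.32 for POM and 0.12 for ATRA+POM, each against DMSO. Nearby regions inside the gene, chr6:401319-401906 (86 reads in ATRA and 97 in DMSO) and chr6:404058-404894 (73 and 78), were called in ATRA and DMSO only. Beside them, weak regions inside the gene were called in POM only, chr6:403559-403732 with 19 reads and chr6:408757-408968 with 17. Thus 4 POM peaks and 3 DMSO peaks lay inside IRF4. At unchanged scaled pileup and background, the DMSO peak at chr6:404058-404367 would have had a Poisson −log10 p-value of 2.38 in POM. That is under the smallest called there, 3.28, and the DMSO peak at chr6:401319-401906 would have had 3.66. In ATRA+POM these would have been 3.47 and 6.05, against a smallest of 3.07.

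**Figure D3:**
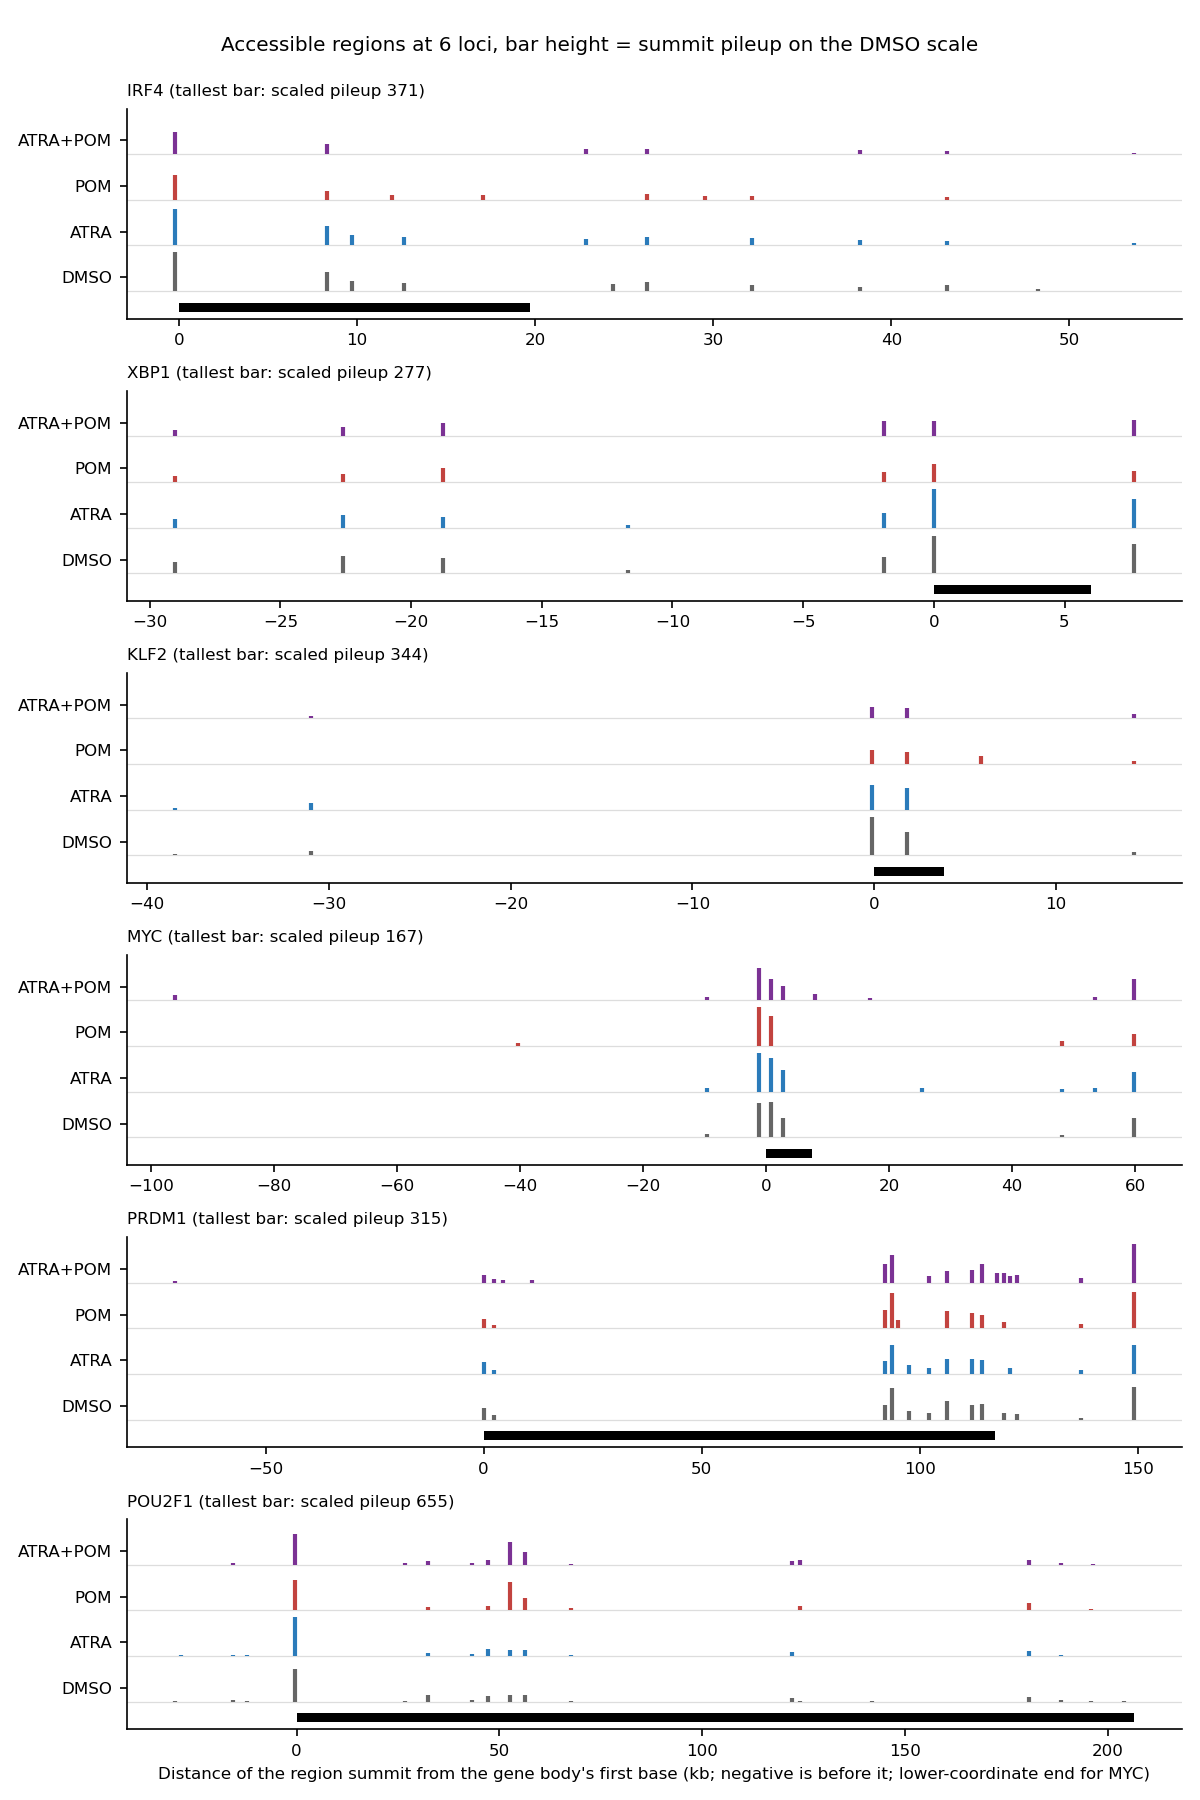
Maps of 6 loci: each bar is a region at its distance in kb from the first base of the gene body (horizontal axis; the lower-coordinate end for MYC), with a height equal to the summit pileup on the DMSO scale, relative to the tallest bar named above each panel; rows are ATRA+POM, POM, ATRA and DMSO from the top, and the black bar is the gene. The bars at the IRF4, XBP1 and KLF2 starts are shorter in the ATRA+POM and POM rows, and 2 POU2F1 bars inside the gene are taller.

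XBP1, the factor that expands the secretory apparatus, had 6 shared regions, all lower after POM than in DMSO, with a median log2 ratio of -1.04. The start region (chr22:28799468-28801057), whose promoter window holds a summit in each list, had 79 reads in ATRA+POM, 50 in POM, 242 in ATRA and 263 in DMSO. The scaled ratio was 0.480 (0.347 to 0.652) for POM against DMSO and 0.403 (0.309 to 0.522) for ATRA+POM against ATRA. ATRA alone stood beside DMSO at this region, with a counting interval of the ratio of 0.881 to 1.26.

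The region just beyond the XBP1 gene (chr22:28791694-28793719) had 81 reads in ATRA+POM, 31 in POM, 180 in ATRA and 207 in DMSO (log2 ratio -1.40 for POM against DMSO and -0.85 for ATRA+POM against ATRA). Of the 3 regions 18.8 to 29.0 kb before the gene, 2 were lower 2-fold after POM, with log2 ratios of -1.16 and -1.02. In ATRA+POM against ATRA, 5 of the 6 regions were below 0, with a median of -0.45, and the start region alone was lower 2-fold. Local background at the start was 11.1 reads in ATRA+POM, 4.01 in POM, 30.1 in ATRA and 36.2 in DMSO, a centred log2 ratio of -1.07 for POM against DMSO. With the deposited fold the start region had a log2 ratio of 0.26 for POM against DMSO, the opposite sign, and of -0.50 for ATRA+POM against ATRA.

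KLF2, a regulator of quiescence and homing in lymphocytes, had the lowest ratio of any shared member region for ATRA+POM against DMSO. Its start region (chr19:16324327-16325457) had 69 reads in ATRA+POM, 51 in POM, 189 in ATRA and 344 in DMSO. On the DMSO scale these are 97.6, 129, 216 and 344, so that ATRA also stood below DMSO. The scaled ratio was 0.284 (0.216 to 0.368) for ATRA+POM, 0.374 (0.273 to 0.503) for POM and 0.629 (0.524 to 0.754) for ATRA, each against DMSO. The region inside the gene (chr19:16325951-16327956) had 68, 42, 165 and 207 reads in ATRA+POM, POM, ATRA and DMSO, with log2 ratios of -0.96 for POM against DMSO and -0.97 for ATRA+POM against ATRA.

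Local background at the KLF2 start was 17.3 reads in ATRA+POM, 8.27 in POM, 45.9 in ATRA and 59.7 in DMSO, with a centred log2 ratio of -1.09 for ATRA+POM against DMSO. With the deposited fold the log2 ratio of the start region was -0.73 for ATRA+POM and -0.28 for POM, each against DMSO, under 2-fold. Scaled on boundary regions it was -1.34 and -0.94. Among the 42930 shared regions, ordered by −log10 q-value, the KLF2 start had rank 28965 in ATRA+POM, 19659 in POM, 12247 in ATRA and 5286 in DMSO.

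**Figure D4:**
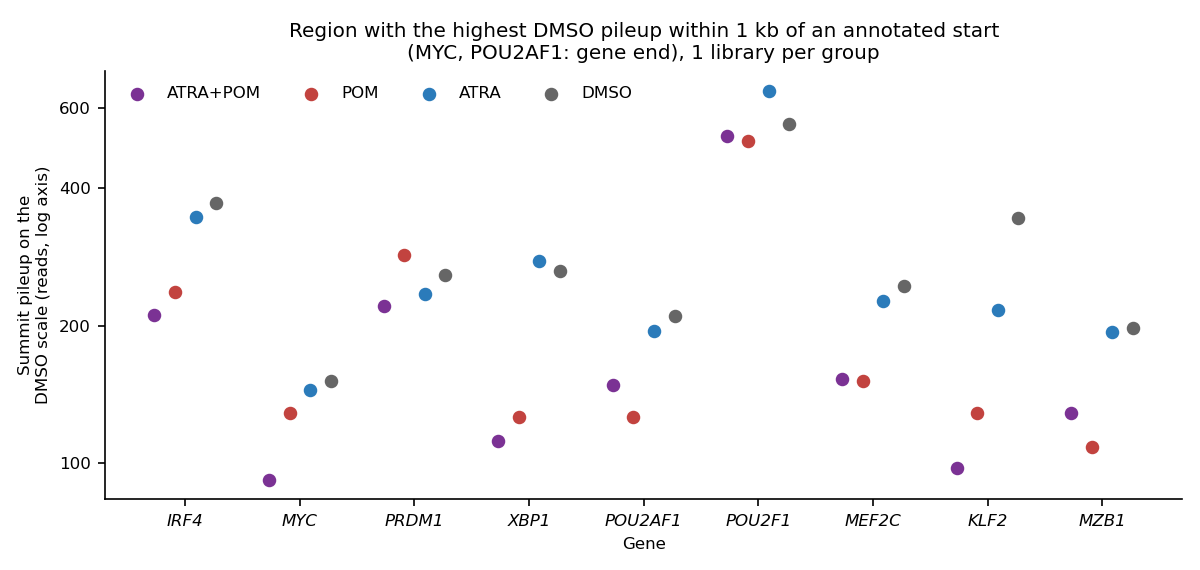
Summit pileup on the DMSO scale (log axis) of 1 region per gene, for the 9 members that have one. It is the region with the highest DMSO pileup within 1 kb of an annotated start. For MYC and POU2AF1 it lies within 1 kb of either boundary of the gene body. Points are single libraries, ATRA+POM, POM, ATRA and DMSO from left to right. At 8 of the 9 genes both pomalidomide libraries lie below ATRA and DMSO, and at PRDM1 the values overlap. Of all 9531 shared regions within 1 kb of a gene boundary, 7382 were lower in POM than in DMSO and 7488 in ATRA+POM than in ATRA.

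No annotated start or strand was held for the coactivator gene POU2AF1. At the higher-coordinate boundary of its gene body (chr11:111378503-111379876) it had 105 reads in ATRA+POM, 50 in POM, 170 in ATRA and 210 in DMSO. The ratio was 0.601 (0.432 to 0.822) for POM against DMSO and 0.762 (0.592 to 0.978) for ATRA+POM against ATRA, in log2 -0.73 and -0.39 around the boundary medians. On the boundary scale the second became 0.07. A region inside the gene (chr11:111358999-111359524) was called with 30 reads in ATRA+POM and 20 in POM, and in neither ATRA nor DMSO. Of all 131 member regions, 2 were called in these 2 lists only, 1.53% against 6.05% of all regions.

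MZB1, a chaperone of the endoplasmic reticulum, had 1 region (chr5:139389646-139390546) with 91 reads in ATRA+POM, 43 in POM, 169 in ATRA and 198 in DMSO. The log2 ratio was -0.87 for POM against DMSO and -0.59 for ATRA+POM against ATRA. JCHAIN, which joins IgM and IgA subunits, had 3 shared regions and none within 1 kb of its start. The nearest one, before the gene (chr4:70667336-70669119), had 48 reads in ATRA+POM, 19 in POM, 94 in ATRA and 94 in DMSO, a log2 ratio of -0.97 for POM against DMSO and -0.67 for ATRA+POM against ATRA. Another region inside JCHAIN (chr4:70658117-70658825) had 64, 32, 51 and 68 reads in that order and went the other way, with 0.25 and 0.63.

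MYC, the growth-promoting factor that lies with IRF4 in a positive loop in myeloma, had 3 shared regions, none past 2-fold in any comparison. The region at the first bases of the gene (chr8:127735224-127736561) had 65 reads in ATRA+POM, 51 in POM, 126 in ATRA and 151 in DMSO. The ratio was 0.853 (0.608 to 1.18) for POM against DMSO and 0.637 (0.465 to 0.866) for ATRA+POM against ATRA. The adjoining region outside the gene (chr8:127734028-127734549) had 99, 66, 146 and 150 reads in that order, with ratios of 1.11 (0.819 to 1.49) and 0.837 (0.642 to 1.09), whose intervals hold 1. In log2 the region at the first bases stood at -0.23 and -0.65, either side of the boundary medians. With the deposited fold these became 0.24 and -0.34, and on the boundary scale 0.25 and -0.19, so the direction for POM against DMSO turned.

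A region 52.3 kb beyond MYC (chr8:127794253-127796591) had 67 reads in ATRA+POM, 21 in POM, 74 in ATRA and 82 in DMSO. Its log2 ratio was -0.63 for POM against DMSO and 0.16 for ATRA+POM against ATRA. Inside the gene, chr8:127737800-127738723 was called with 45 reads in ATRA+POM, 81 in ATRA and 85 in DMSO and was not called in POM. MYC local background differed less than that of IRF4, XBP1 and KLF2, with median centred log2 ratios of -0.08 for POM against DMSO and -0.26 for ATRA+POM against ATRA.

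PRDM1, the repressor that ends the B cell programme, had ratios close to those of all shared regions. Its 9 shared regions had median log2 ratios of -0.01 for POM against DMSO and -0.08 for ATRA+POM against ATRA. The region at the annotated start inside the gene body (chr6:106085891-106086735) had 156 reads in ATRA+POM, 113 in POM, 205 in ATRA and 258 in DMSO, with ratios of 1.11 (0.879 to 1.38) and 0.939 (0.758 to 1.16). The region at the first base of the gene body (chr6:105992374-105993100) had 46, 30, 87 and 92 reads in that order, with log2 ratios of -0.28 and -0.62; with the deposited fold these became 0.21 and -0.25. The region with most DMSO reads lay 31.9 kb beyond the gene (chr6:106141169-106142945) and had 223, 117, 207 and 268 reads, with log2 ratios of 0.14 for POM against DMSO and 0.41 for ATRA+POM against ATRA. A weak region nearer the gene (chr6:106129010-106130482) had 27 reads in ATRA+POM, 13 in POM, 25 in ATRA and 15 in DMSO, above 2-fold after POM (2.19, 0.958 to 4.93), with an interval that holds 1. For ATRA+POM against DMSO the ratio was 2.55 (1.31 to 5.15).

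POU2F1 had the region with the largest increase among member regions. This region inside the gene, 52713 bases from the nearest annotated start (chr1:167273173-167273947), had 276 reads in ATRA+POM, 187 in POM, 87 in ATRA and 113 in DMSO. On the DMSO scale these are 390, 472, 99.7 and 113, with both pomalidomide libraries over both others. The ratio was 4.18 (3.29 to 5.33) for POM against DMSO and 3.92 (3.07 to 5.04) for ATRA+POM against ATRA. Its rank among the shared regions was 805 in ATRA+POM, 239 in POM, 14947 in ATRA and 13790 in DMSO. With the deposited fold the log2 ratios were 1.02 and 0.60, so the second was under 2-fold.

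The next POU2F1 region (chr1:167276880-167277601) had 149 reads in ATRA+POM, 85 in POM, 87 in ATRA and 119 in DMSO, with ratios of 1.80 (1.35 to 2.40) and 2.11 (1.61 to 2.79) in the 2 pairs. With the deposited fold its log2 ratio for ATRA+POM against ATRA was -0.31, the opposite sign. Local background at the first of these regions was 21.2 reads in ATRA+POM, 9.17 in POM, 11.8 in ATRA and 14.1 in DMSO. Its centred log2 ratio for POM against DMSO was 1.49, and that of the second region was 1.52. The caller's windows were not given, so these values can include reads of the peaks themselves. The start region of POU2F1 (chr1:167219972-167222668) had 368, 201, 572 and 555 reads in that order, a log2 ratio of -0.13 for POM against DMSO and -0.33 for ATRA+POM against ATRA, both above the boundary medians. With the deposited fold these became 0.36 and 0.03, and on the boundary scale 0.35 and 0.12, so both turned sign.

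MEF2C had 14 shared regions that went both ways, with a median log2 ratio of -0.25 for POM against DMSO and -0.08 for ATRA+POM against ATRA. The region with most reads of any member lay 56.1 kb beyond the gene (chr5:88659693-88661783), with 419 reads in ATRA+POM, 241 in POM, 735 in ATRA and 619 in DMSO. The ratio was 0.983 (0.844 to 1.14) for POM and 1.36 (1.22 to 1.52) for ATRA, each against DMSO. Its rank among shared regions was 315 in ATRA+POM, 211 in POM, 27 in ATRA and 145 in DMSO.

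The strongest region at an annotated MEF2C start (chr5:88881598-88884766) had 108 reads in ATRA+POM, 60 in POM, 198 in ATRA and 245 in DMSO, on the DMSO scale 153, 152, 227 and 245. Both pomalidomide libraries were lower, with log2 ratios of -0.69 for POM against DMSO and -0.57 for ATRA+POM against ATRA.

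The region over the MEF2C promoter window shown above (chr5:88826934-88827554) had 37 reads in ATRA+POM, 17 in POM, 17 in ATRA and 24 in DMSO. Its ratio was 2.69 (1.48 to 5.09) for ATRA+POM against ATRA and 1.79 (0.902 to 3.47) for POM against DMSO. Before scaling the POM pileup was not above those of ATRA and DMSO. A region inside the gene (chr5:88746059-88747206) had 11, 6, 39 and 51 reads in that order, with log2 ratios of -1.75 for POM against DMSO and -1.52 for ATRA+POM against ATRA. Of the shared member regions, it was the one that stayed lower 2-fold for ATRA+POM both with the deposited fold (-1.25 against DMSO and -1.12 against ATRA) and with the boundary scale (-1.23 and -1.07). For POM against DMSO these values were -0.97 and -1.27. This merged region joins separate peaks at low counts. The ATRA+POM peak (chr5:88746832-88747105, summit 88747017, 11 reads) and the POM peak (chr5:88746427-88746824, summit 88746600, 6 reads) shared no base. A region 45.0 kb before the gene (chr5:88948586-88949360) had 21 reads in ATRA+POM, 9 in POM, 11 in ATRA and 11 in DMSO, higher 2-fold in both pairs at low counts.

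The members also differed in how high their best region ranked by −log10 q-value among the 42930 shared regions, where the list has 1 length for every library. MEF2C and POU2F1 ranked highest in all libraries: the best MEF2C region, beyond the gene, was within the first 315, and the best POU2F1 region was at 782 in ATRA+POM, 239 in POM, 513 in ATRA and 1295 in DMSO. The best POU2F1 region was the start in ATRA+POM, ATRA and DMSO and the region inside the gene in POM. The IRF4 start ranked 7700 in ATRA+POM, 5969 in POM, 4989 in ATRA and 4729 in DMSO. The XBP1 start ranked 16158, 11479, 4673 and 6020 in the same order, and in ATRA+POM the region beyond the gene ranked higher (15870).

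Best ranks of the other genes spread widely over the list. MZB1 ranked 18968 in ATRA+POM, 24575 in POM, 11250 in ATRA and 12516 in DMSO, and POU2AF1 ranked 9429, 12641, 7176 and 6547. Both were thus lower in the order in the pomalidomide libraries, as were the IRF4, XBP1 and KLF2 starts. The best MYC region, outside the first bases of the gene, ranked 14694 in ATRA+POM, 11172 in POM, 13309 in ATRA and 17617 in DMSO, and the best PRDM1 region 2462, 2507, 5996 and 4030. For MYC and PRDM1 the pomalidomide libraries did not rank lower than DMSO. The best PRDM1 region was the annotated start inside the gene body in POM and the region beyond the gene in the other libraries. Its ranks thus do not follow 1 region. JCHAIN had best ranks of 20345, 22733, 18414 and 22369. They belong to the region inside the gene in ATRA+POM and POM and to the one before the gene in ATRA and DMSO.

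By position, most POU2F1 peaks lay inside the gene body, with 14 of 16 in ATRA+POM, 11 of 12 in POM, 10 of 14 in ATRA and 14 of 18 in DMSO. MEF2C had 21 of 30, 16 of 24, 12 of 22 and 16 of 27 inside in the same order. XBP1 summits lay outside its short gene body, except for 1 of 7 in ATRA. The 12 member regions called in ATRA+POM only were weak, with pileups of 8 to 53 reads; the PRDM1 region just past the gene (chr6:106110270-106110932) had 53 and a MYC region past the gene (chr8:127743161-127743451) had 19. Regions called in ATRA and DMSO only numbered 10, or 7.63% of member regions against 6.31% of all regions.

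ATRA alone left the shared member regions near DMSO. Of 51, 0 were higher and 1 was lower 2-fold, against 0.808% and 0.939% of all shared regions, and the median log2 ratio was -0.07. The lower one was a POU2F1 region (chr1:167252907-167253810) with 48 reads in ATRA+POM, 24 in POM, 42 in ATRA and 108 in DMSO, a ratio of 0.445 (0.304 to 0.642) for ATRA against DMSO; with the deposited fold it was under 2-fold. The KLF2 start came next (log2 -0.67), then a MEF2C region (-0.52). The highest were the weak PRDM1 region named above (0.93), the distal MEF2C region (0.44) and a POU2F1 region (0.41). At the XBP1 start, ATRA stood at 277 and DMSO at 263 on the DMSO scale.

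Adding ATRA to pomalidomide was described by ATRA+POM against POM. Of the 51 member regions, 0 were higher and 0 lower 2-fold, against 2.46% and 1.67% of all shared regions, and the median log2 ratio was 0.07. The highest were 2 MEF2C regions (0.88 and 0.84) and the region beyond MYC (0.84), and the lowest 2 POU2F1 regions (-0.95 and -0.63) and a PRDM1 start region (-0.60). At the starts of IRF4, XBP1 and KLF2 the log2 ratios were -0.17, -0.18 and -0.40, with counting intervals of the ratio of 0.681 to 1.16, 0.613 to 1.29 and 0.520 to 1.11, which hold 1.

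Other genes of these pathways were described by their shared regions for POM against DMSO. The MYC network (11 genes, MAX, MXD, MLX and MYC paralogs) had 2 of 38 regions higher and 10 lower 2-fold, with a median log2 ratio of -0.46. Of its 9 genes with a shared region within 1 kb of a gene boundary, which can be a start or an end, 7 were below 0 and 2 above. Of all 9531 shared regions within 1 kb of a gene boundary, 7382 were below 0. MLX, a partner of the MAX-like network, had 36 reads in ATRA+POM, 19 in POM, 145 in ATRA and 159 in DMSO. MAX, the obligate partner of MYC, had 209, 107, 295 and 368. After scaling, the log2 ratios for POM against DMSO were -1.73 at MLX and -0.45 at MAX, beside the boundary median of -0.48. MXD1, an antagonist of MYC, had 445 reads in ATRA+POM, 218 in POM, 473 in ATRA and 450 in DMSO (log2 0.29), and its relative MXD4 had 449, 197, 478 and 508 (log2 -0.03). The octamer factors POU2F2 and POU2F3 had 0 of 8 higher and 3 lower (median -0.89). The B cell and germinal centre factors (8 genes, among them PAX5, BCL6 and BACH2) had 8 of 50 higher and 2 lower (median 0.06). SPIB, an ETS factor, had 87 reads in ATRA+POM, 54 in POM, 239 in ATRA and 284 in DMSO at a gene boundary. Its scaled log2 ratio was -1.06 for POM and -1.21 for ATRA+POM, each against DMSO. For BCL6 the reads were 143, 59, 151 and 143, with scaled log2 ratios of 0.06 and 0.50. The secretory programme genes (5 genes, among them ATF6, ERN1 and ELL2) had 1 of 32 higher and 4 lower (median -0.35). Of the genes with a region within 1 kb of a gene boundary, 3 of 5 B cell factors and 2 of 4 secretory genes were below 0. In ATRA+POM against ATRA the 2-fold counts were 2 higher and 8 lower, 0 and 2, 12 and 2, and 2 and 1 for the lists in the same order. All 2-fold counts are read against the shares of 11.5% and 9.52% (POM against DMSO) and 12.8% and 8.63% (ATRA+POM against ATRA) of all shared regions.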

How the data were processed

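ATAC-seq peak lists of 4 OPM-2 libraries were used, 1 per group, grouped by the treatment label. Lists were called per library; nuclei were tagged with Tn5 and the DNA amplified by PCR, per the labels' protocols. The build was hg38, per the submitters' processing notes. Aligner, peak caller, settings and Tn5 offset were not given in the sources used here. For nearly all peaks the deposited score equals 10 times the −log10 q-value with decimals dropped. From the column layout and the values, the deposited fold is a ratio of summit pileup to local background, with 1 read added to each. The layout likewise gives a deposited −log10 p-value and a −log10 q-value at each summit, and summit positions equalled those of the deposited summit lists.

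Whole-number pileup and local background were solved from the deposited fold and −log10 p-value under a Poisson tail, an assumption about the caller; the p-value was met within 0.01 for at least 99.98% of peaks of each list and for all member peaks. The lower limit of the background searched (0.5) and the tail calculation for very small p-values were corrected after such misfits were seen. Ratios were scaled by the median over shared regions, and read totals were not used here. Intervals are exact binomial intervals at 95%. Gene bodies (19974 protein-coding genes) were taken from RefSeq on GRCh38.p14 and starts from RefSeq promoter windows, held for 8 of the 10 members; the tables give no exons. Python 3.11.15, pandas 2.3.3 and scipy 1.17.1 were used, and the code was tested on simulated data. On chromosomes outside 1 to 22 and X, 5 peaks were left out.

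The members, lists and comparisons were chosen with earlier results of these data known. Named were, for each member, the shared region with most DMSO reads and the one nearest its start, gained or lost peaks among the strongest 20000, and per comparison the 3 member regions with the largest ratio in each direction. Other regions, the local background, the projected pileups and the lists in which a region was called were singled out after their values were seen. Alternatives were lists of equal length, a limit of 10 kb, peaks of 300 bp or wider, absence by summit distance (250 bp), strong peaks only, other scales, a 1.5-fold call, the deposited fold and ranks.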

Additional observations from a re-analysis of the deposited data

Results flagged for a closer look

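In 13 of the 51 shared member regions the log2 ratio of pomalidomide had opposite signs without ATRA (POM against DMSO) and with it (ATRA+POM against ATRA). The difference was not tested, since each group had 1 library, and in 0 of these regions did both counting intervals exclude no change. None of them passed 2-fold in either pair. At POU2F1 the values were -0.83 and 0.50 (chr1:167252907-167253810), and 0.43 and -0.23 (chr1:167401232-167401906). At XBP1 they were -0.18 and 0.30 (chr22:28818297-28819939). At MEF2C they were 0.0013 and -0.22, -0.30 and 0.09, -0.0422 and 0.50, -0.46 and 0.49, -0.36 and 0.25, and -0.0867 and 0.04 in 6 regions in the order of position. At PRDM1 they were 0.15 and -0.09 (the annotated start), and -0.26 and 0.36 (chr6:106106346-106107451). At MYC they were 0.15 and -0.26 outside the first bases of the gene, and -0.63 and 0.16 in the region beyond it. For ATRA without and with pomalidomide, 31 of 51 had opposite signs, 0 with both intervals excluding no change and 1 past 2-fold: the POU2F1 region chr1:167252907-167253810, with -1.17 for ATRA against DMSO and 0.16 for ATRA+POM against POM.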

How the results depend on the processing

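No paired analysis was possible because each group had 1 library, so that the groups shared fewer than 2 replicate numbers. With 1 library per group and PCR copies in the reads, depth limits low regions most, and the POM library was the shallowest. Of the counts, 69 results under alternatives stayed within 1.5 times and 53 did not; of 192 values of named regions under alternatives, 23 turned sign, 4 of them among the 90 past 2-fold and 19 among the 102 under it. The cause was not tested except where fewer peaks entered.

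Member counts of gained and lost peaks were 0 in all comparisons with strong peaks only, except lost for POM against DMSO (1). With absence by summit distance, gained and lost for ATRA against DMSO were 25 and 32, gained for POM against DMSO 29, gained and lost for ATRA+POM against DMSO 38 and 36, and lost for ATRA+POM against POM 23. With lists of equal length, lost were 12 (ATRA against DMSO) and 24 (POM against DMSO), and gained 9 (ATRA+POM against DMSO), 16 (against ATRA) and 17 (against POM). Within 10 kb, the ATRA list had 59 member peaks, gained for ATRA against DMSO were 4, and lost were 25 (POM against DMSO), 11 (ATRA+POM against DMSO) and 6 (against ATRA). For peaks of 300 bp or wider, lost were 12 (ATRA against DMSO) and 5 (ATRA+POM against POM), and gained 3 (POM against DMSO).

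For shared regions, a 1.5-fold call gave 1 higher and 2 lower (ATRA against DMSO), 20 lower (POM against DMSO), 17 lower (ATRA+POM against DMSO), 14 lower (against ATRA), and 4 higher and 3 lower (against POM). The deposited fold gave 0 lower (ATRA against DMSO), 1 higher and 0 lower (POM against DMSO), and 1 higher and 1 lower for ATRA+POM against DMSO and likewise against ATRA. Within 10 kb, 2 were higher for POM and 2 for ATRA+POM, each against DMSO. By large shifts of rank among shared regions, 1 was higher (POM against DMSO), 10 lower (ATRA+POM against DMSO), 8 lower (against ATRA), and 3 higher and 3 lower (against POM). The boundary scale, chosen after seeing the data, shifted all log2 ratios by 0.48 for POM and 0.48 for ATRA+POM against DMSO and by 0.46 for ATRA+POM against ATRA, and left 1, 2 and 1 lower. With regions of at least 30 reads, the shifts were 0.09, 0.15 and 0.13, and no count of calls moved past 1.5 times.

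Of ratios past 2-fold, those that turned sign did so with the deposited fold, at the XBP1 start (0.26) and inside IRF4 (0.0123) for POM against DMSO, at the region beyond IRF4 (0.0405) for ATRA+POM against DMSO, and at the second POU2F1 region (-0.31) for ATRA+POM against ATRA. Of ratios under 2-fold, 12 turned sign with the deposited fold. Among them was POM against DMSO at the starts or gene body boundaries of IRF4 (0.32), MYC (0.24), PRDM1 (0.21) and POU2F1 (0.36). With the boundary scale 6 did so, and 1 with the scale from regions of at least 30 reads.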
